A study of Mus musculus with 6 samples.

Results

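Vitamin A metabolism and its nuclear receptors were followed through 9 genes, *Stra6*, *Crabp2*, *Dhrs3*, *Dhrs9*, *Aldh1a1*, *Aldh1a3*, *Cyp26b1*, *Rara* and *Rarg*. The genes were taken from a list of named retinoid genes and found among the 47643 Ensembl gene IDs of the count files through the GENCODE mouse annotation. All 9 were present, and all 9 passed the filter on low counts. RNA came from mouse submandibular salivary gland organoids (mSGOs), epithelial structures grown in Matrigel from dissociated submandibular glands of C57BL/6 mice aged 8 to 12 weeks, all female per the methods of the study. Day 5 and day 7 organoids of the same 3 mice were sequenced, 1 library per mouse and day and 6 in all. All organoids were untreated and non-irradiated, and all were kept in WRY medium with Wnt3a-conditioned medium (50%), R-spondin1-conditioned medium (10%), Y27632 (10 µM), dexamethasone (1 µM), EGF, FGF2, N2 and insulin. No retinoid stands among the listed additions, while the retinoid content of the conditioned media is not given. The cells had first been cultured for 3 days as spheres in medium without the Wnt3a and R-spondin1 supplements and were then dissociated again, so both days are counted from cells already selected by culture. The comparison of day 7 with day 5 asks how retinoid genes change while the organoids grow in medium of the same recipe. Whether the medium was renewed between the days is not stated for these organoids.

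Retinol enters cells through the membrane receptor STRA6 and is oxidised to retinaldehyde by retinol dehydrogenases, a step that retinaldehyde reductases such as DHRS3 run backwards. Retinaldehyde dehydrogenases of the ALDH1A family then make retinoic acid, which the carrier CRABP2 delivers to the nuclear receptors RARA, RARB and RARG, and which CYP26 enzymes break down. The receptors act as heterodimers with retinoid X receptors on pairs of half-sites in DNA, and several genes of the pathway, among them *Cyp26* genes, *Dhrs3*, *Crabp2* and *Rarb*, are known to respond to retinoic acid themselves. Retinoic acid is known from branching of the embryonic submandibular gland, and lack of vitamin A is known to turn glandular epithelium into a keratinised squamous one.

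Promoter windows of the RefSeq annotation (GRCm38.p6, 250 bases before to 50 after each transcript start) were found for 7 of the 9 genes, 17 windows in all. They were missing for *Aldh1a3* and *Crabp2*. Because retinoic acid receptors bind DNA through half-sites, the windows were searched on both strands for the letters AGGTCA and AGTTCA and for direct repeats of the half-site with spacers of 1, 2 or 5 bases (DR1, DR2 and DR5), some of which contain these half-sites. An AGGTCA half-site was held by 16.3% and an AGTTCA half-site by 14.0% of all 32851 promoter windows, while DR1, DR2 and DR5 were held by 0.222%, 0.268% and 0.0974%. Counted per gene, over all windows of a gene, the half-sites were held by 18.1% and 15.7% of genes. Of the 17 windows of the retinoid genes, 3 held AGGTCA and 2 held AGTTCA. Of the 7 genes with a window, 4 had a half-site in at least 1 window (*Dhrs9*, *Rara*, *Rarg* and *Stra6*), and 0 had a direct repeat. The 4 genes pool both half-sites and all windows of a gene, so they are not comparable with the shares for a single half-site. The windows are printed for *Dhrs3* and *Cyp26b1*, because both genes rose from day 5 to day 7, and for *Rarg*, the most counted receptor of the family, because 1 of its 2 windows holds a half-site. Capitals mark the half-site, which is read as AGGTCA on the opposite strand and starts at position -225 from the transcript start of *Rarg*. The *Dhrs3* window is the first of 3 and lies at chr4:144892577-144892876 on the plus strand, the *Cyp26b1* window at chr6:84593761-84594060 on the minus strand, and the *Rarg* window with the half-site at chr15:102257473-102257772 on the minus strand, and each is written in the direction of its gene.
Dhrs3: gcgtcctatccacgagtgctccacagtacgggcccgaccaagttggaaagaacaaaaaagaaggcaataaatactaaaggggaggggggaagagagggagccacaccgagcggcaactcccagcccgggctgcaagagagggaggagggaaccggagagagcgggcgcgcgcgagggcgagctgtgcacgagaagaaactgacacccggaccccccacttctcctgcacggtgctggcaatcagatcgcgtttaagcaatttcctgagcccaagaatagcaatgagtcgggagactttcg
Cyp26b1: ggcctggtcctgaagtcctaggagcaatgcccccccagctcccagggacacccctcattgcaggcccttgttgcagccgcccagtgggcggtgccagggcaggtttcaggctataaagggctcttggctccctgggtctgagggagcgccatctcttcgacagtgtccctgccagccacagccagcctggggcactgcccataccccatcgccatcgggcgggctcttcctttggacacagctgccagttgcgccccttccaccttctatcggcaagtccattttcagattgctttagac
Rarg: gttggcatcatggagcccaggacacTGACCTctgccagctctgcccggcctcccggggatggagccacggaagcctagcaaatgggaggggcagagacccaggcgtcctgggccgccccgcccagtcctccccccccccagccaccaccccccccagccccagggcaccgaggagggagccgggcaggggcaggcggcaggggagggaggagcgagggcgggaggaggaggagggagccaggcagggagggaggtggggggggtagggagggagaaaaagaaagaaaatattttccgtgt
The first 40 bases after the start in the *Cyp26b1* and *Rarg* windows shown were not found in GENCODE transcripts of these genes, so these start sites, and positions counted from them, may differ between the annotations. The same holds for the *Rara* window with AGGTCA, at chr11:98964622-98964921, which is not printed. *Rarg* stands among the genes with a half-site only through the window shown. Neither half-site was in the *Dhrs3* and *Cyp26b1* windows shown. A match is only a run of letters, and its absence here says nothing of sites elsewhere.

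Each library held 1918198 to 2837397 counts assigned to genes, with 14024 to 14856 genes detected, and 3 counts, the limit that a count of 0 allows, corresponded to 1.06 to 1.56 CPM (counts per 1000000). The reads were 3′ tags, so a level is given in CPM scaled by TMM, with no division by gene length. Libraries of day 7 differed more among themselves than those of day 5 (biological coefficient of variation 0.29 against 0.09). Reads assigned to no gene made up 13.7% to 14.4% of a day 5 library and 9.12% to 9.74% of a day 7 library. Epithelial markers (8 of 8 detected, *Krt14* highest) summed to between 14434 and 18210 CPM at day 5 and between 11545 and 15989 CPM at day 7. Acinar markers (4 of 7 detected) were at 6.03 to 10.4 and 10.4 to 35.2 CPM, macrophage markers (4 of 12) at 8.03 to 10.7 and 9.30 to 13.9 CPM, endothelial markers (7 of 10) at 0.825 to 3.01 and 2.08 to 4.99 CPM, and fibroblast markers (8 of 12) at 14.8 to 20.1 and 24.5 to 26.8 CPM. *Adgre1*, *Csf1r* and *Lyz2* of the macrophage list had 0 counts in every library, while *Ptprc*, *Cd68*, *Cd14* and *Aif1* were detected. In the endothelial list *Cdh5*, *Tek* and *Erg* were at 0, and *Pecam1*, *Kdr*, *Emcn*, *Vwf*, *Eng*, *Cldn5* and *Esam* were detected. In the fibroblast list *Col1a2*, *Col3a1*, *Lum* and *Dpt* were at 0, and *Col1a1*, *Pdgfra*, *Pdgfrb*, *Dcn*, *Thy1*, *Fbln1*, *Postn* and *Twist2* were detected. Of the summed fibroblast level, *Fbln1* was the highest member. The part of these marker levels in the results below was not tested.

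From day 5 to day 7, 3 of the 9 retinoid genes rose past the threshold (edgeR adjusted p under 0.05 and absolute log2 fold change over 0.6) and 0 fell. The 3 were the retinaldehyde reductase gene *Dhrs3*, the retinoic acid carrier gene *Crabp2* and the retinoic acid hydroxylase gene *Cyp26b1*. Over all 15792 genes tested, 12.0% passed the threshold and 7.22% did so with a higher level at day 7. All 3 day 7 values lay above all 3 day 5 values for the same 3 retinoid genes, a pattern found in 15.4% of all genes tested. The median log2 fold change of the 9 was 0.77, with 8 of 9 fitted above 0, while the median over all genes was -0.01, with 7833 of 15792 above 0. In whole organoids a change in the number of cells of a type and a change in RNA per cell cannot be told apart.

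**Figure D1:**
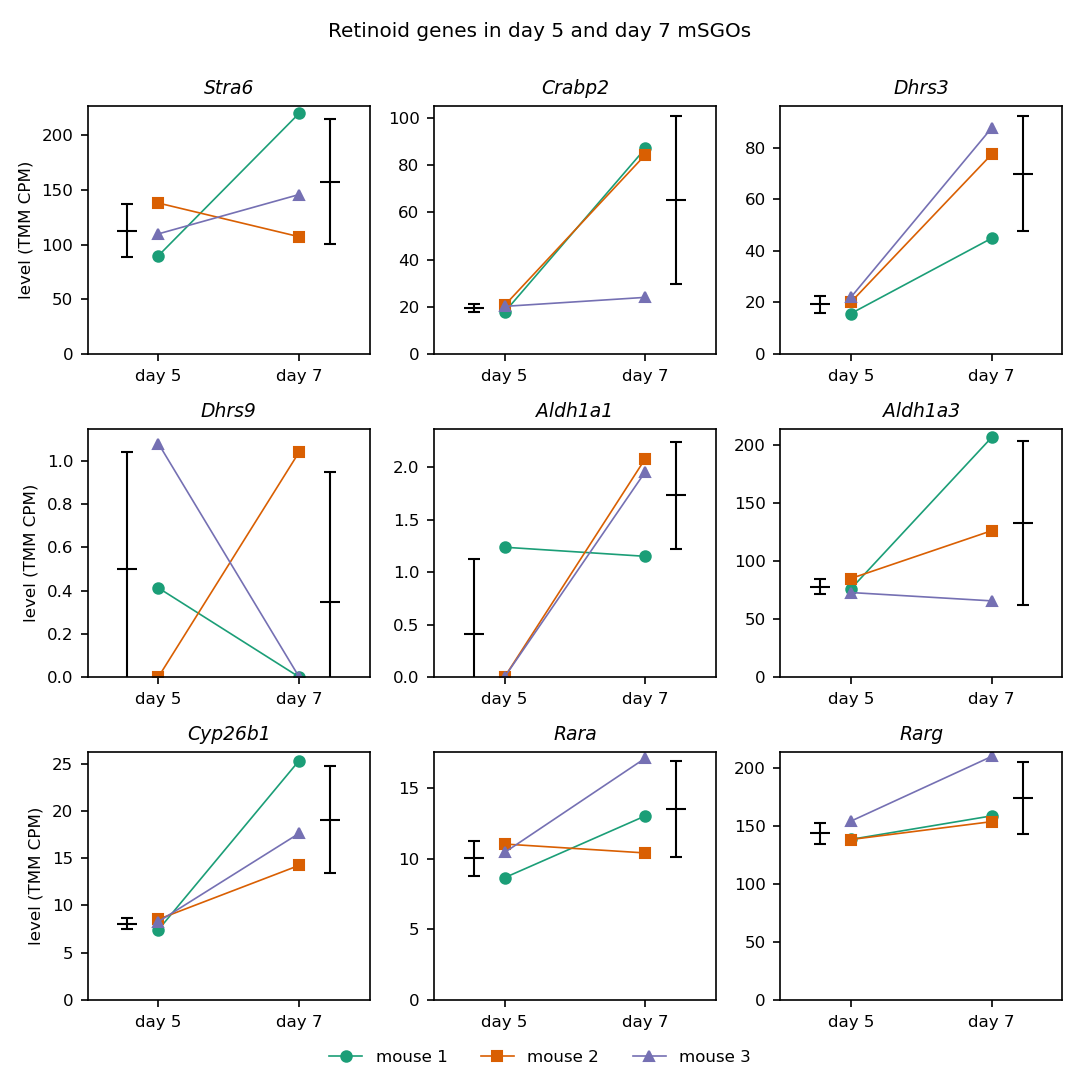
Level of each of the 9 retinoid genes in TMM-scaled CPM (y axis, linear, from 0) at day 5 and day 7 (x axis). Each colour and marker is 1 mouse, a line joins its 2 libraries, and the black bars beside the points are the mean ± SD of the 3 libraries of a day. The lines of *Dhrs3*, *Crabp2* and *Cyp26b1* all go up, that of *Crabp2* in mouse 3 only from 20.2 to 24.0 CPM, and *Dhrs9* and *Aldh1a1* stay near the level of single counts.

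*Stra6*, the retinol receptor (GRCm39 chr9:57970967-58063543, plus strand), was among the more abundant of the 9 genes. Its level was 89.9, 138 and 110 CPM in mice 1, 2 and 3 at day 5 and 220, 107 and 146 CPM at day 7. The organoids of mouse 1 went from the lowest value of day 5 to the highest of day 7, those of mouse 2 went down, and the days overlapped. The log2 fold change was 0.49 ± 0.24 (SE), short of the threshold (edgeR adjusted p = 0.217). Exons of *Islr* overlap *Stra6* by 16 bases on the opposite strand, but *Islr* had 0 counts in all 6 libraries.

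*Crabp2*, the carrier that hands retinoic acid to its receptors (chr3:87855973-87860683, plus strand), had 17.7, 20.6 and 20.2 CPM at day 5, a mean of 19.5 ± 1.54 (SD, n = 3). At day 7 it had 87.1, 84.4 and 24.0 CPM, a mean of 65.1 ± 35.7 (SD, n = 3). Mice 1 and 2 were nearly alike at day 7, and mouse 3 stood just above the day 5 values. Divided by the day 5 value of the same mouse, the day 7 level came to 4.91 (mouse 1), 4.10 (mouse 2) and 1.19 (mouse 3). *Crabp2* rose by 1.75 ± 0.35 (SE) on the log2 scale, a 3.36-fold difference (edgeR adjusted p = 0.00268), resting on 140 counts at day 5 and 519 at day 7. The call held in every alternative, with log2 fold changes from 1.50 to 2.13 when any 1 library was left out. The upper end came from leaving out day 7 of mouse 3. The edgeR adjusted p came closer to the cutoff in some, at 0.0360 with robust = TRUE and 0.0359 without day 7 of mouse 2. In mouse 3 the raw counts were 56 at day 5 and 49 at day 7, so its higher CPM came from scaling to library size.

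*Dhrs3*, which reduces retinaldehyde back to retinol and so limits the supply for retinoic acid synthesis (chr4:144619245-144654779, plus strand), had the smallest adjusted p of the 9. Its level was 15.7, 20.1 and 22.0 CPM at day 5 (mean 19.2 ± 3.23 SD, n = 3) and 44.9, 77.4 and 87.6 CPM at day 7 (mean 70.0 ± 22.3 SD, n = 3). Every mouse moved the same way, with ratios of 2.86, 3.85 and 3.99, and the days were well apart. *Dhrs3* rose by 1.85 ± 0.27 (SE) on the log2 scale, a 3.62-fold difference (edgeR adjusted p = 0.000166). It rested on 139 counts at day 5 and 519 at day 7, nearly the numbers of *Crabp2*. Leaving out any 1 library gave log2 fold changes from 1.67 to 2.09 and kept the call.

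*Dhrs9*, a retinol dehydrogenase gene of epithelia that works in the opposite direction (chr2:69210776-69234877, plus strand), was at the limit of detection. It had 1, 0 and 3 counts in mice 1, 2 and 3 at day 5 and 0, 3 and 0 counts at day 7. No difference between the days was detectable at this depth (ratio 0.716, exact 95% interval from 0.105 to 4.23 for counting error only), and the edgeR adjusted p was 0.875.

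The retinaldehyde dehydrogenases *Aldh1a1* and *Aldh1a3* catalyse the same step, the formation of retinoic acid. *Aldh1a1* (chr19:20469539-20622825, plus strand) had 3, 0 and 0 counts at day 5 and 3, 6 and 4 counts at day 7. Mouse 1 had the same count on both days, while the other two went from 0 to a few counts. The summed counts of 3 and 13 gave a ratio of 4.14 with an exact 95% interval from 1.14 to 22.6 for counting error only, and the edgeR test over mice did not pass (adjusted p = 0.218). Up to 95 bases at the 3′ end of an *Aldh1a1* transcript also occur in *Aldh1a7*, so single tags could come from either gene.

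*Aldh1a3* (chr7:66040638-66077850, minus strand) was the abundant member of this enzyme family. It stood at 75.9, 84.9 and 72.8 CPM at day 5 (mean 77.8 ± 6.27 SD, n = 3) and at 206, 126 and 65.6 CPM at day 7 (mean 133 ± 70.6 SD, n = 3). Mouse 1 had more at day 7, mouse 2 somewhat more and mouse 3 slightly less, with ratios of 2.72, 1.49 and 0.901, so the days overlapped. The log2 fold change of 0.77 ± 0.29 (SE) did not pass the threshold in the fit without a term for the mouse (edgeR adjusted p = 0.0893). It did pass with the mouse as a replicate block, at 0.64 on the log2 scale with an edgeR adjusted p of 0.0494, a fit in which 14.8% of all genes passed. Without the filter on low counts the edgeR adjusted p was 0.00486, with 12.9% of all genes passing. Without day 7 of mouse 3 the log2 fold change was 1.09 (edgeR adjusted p = 0.000823), with 16.7% of all genes passing. Leaving out single libraries moved the log2 fold change between 0.31 and 1.09. A stretch of 103 bases at the end of *Aldh1a3* also occurs in the predicted gene *Gm69723*.

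*Cyp26b1*, which hydroxylates retinoic acid for its removal (chr6:84548396-84570890, minus strand), had 7.42, 8.54 and 8.29 CPM at day 5, a mean of 8.08 ± 0.583 (SD, n = 3). At day 7 it had 25.3, 14.2 and 17.6 CPM, a mean of 19.1 ± 5.68 (SD, n = 3). All 3 mice were higher at day 7, by ratios of 3.41, 1.67 and 2.13, and the days did not overlap. *Cyp26b1* rose by 1.23 ± 0.31 (SE) on the log2 scale (edgeR adjusted p = 0.0129). This call was the least stable of the 3. It was lost without day 5 of mouse 1, 2 or 3, at log2 fold changes of 1.17, 1.27 and 1.25 and edgeR adjusted p of 0.0839, 0.0681 and 0.0743, fits in which 5.81%, 5.17% and 5.83% of all genes passed. It was also lost when edgeR tested for a change above 0.6 on the log2 scale (glmTreat, adjusted p = 0.120), where 3.94% of all genes passed. The other genes for this step, *Cyp26a1* and *Cyp26c1*, had 0 counts in every library.

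The 2 receptor genes among the 9 did not pass the threshold. *Rarg*, the receptor known as the main one of stratified epithelium (chr15:102143373-102165952, minus strand), had 138, 138 and 154 CPM at day 5 and 158, 153 and 210 CPM at day 7. Its levels were close to each other in 5 libraries and higher in mouse 3 at day 7, and 1 value of day 7 fell just under the highest of day 5. The log2 fold change was 0.28 ± 0.19 (SE, edgeR adjusted p = 0.375). *Rara* (chr11:98818612-98865768, plus strand) had 8.66, 11.0 and 10.4 CPM at day 5 and 13.0, 10.4 and 17.1 CPM at day 7, with overlapping days. Its log2 fold change was 0.41 ± 0.31 (SE, edgeR adjusted p = 0.412), and 92 bases of one of its ends also occur in *Cuedc1*.

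**Figure D2:**
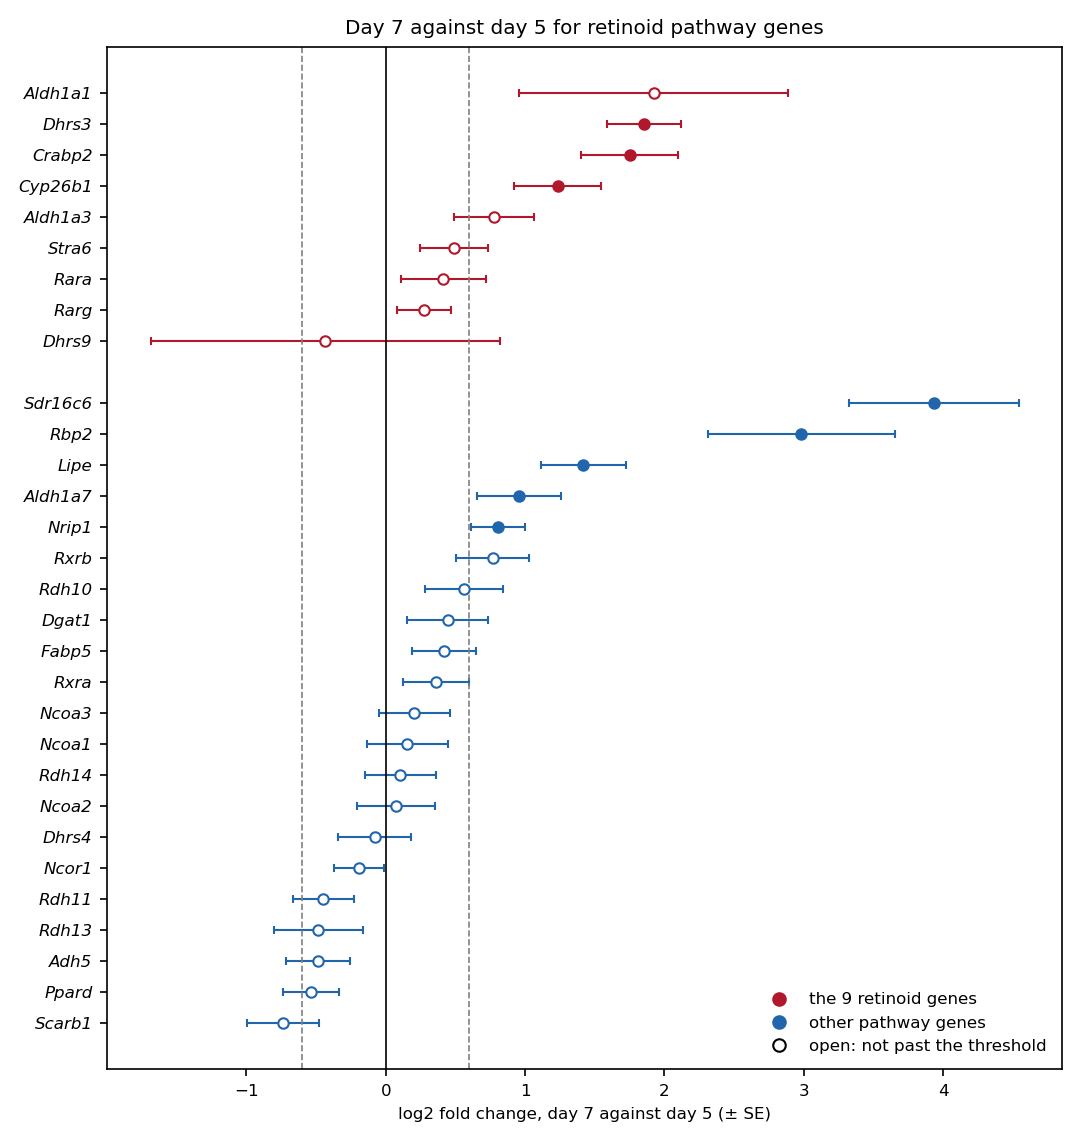
Log2 fold change of day 7 against day 5 with its standard error (x axis) for the 9 retinoid genes (red) and for other genes of the pathway that passed the threshold or had a mean of at least 10 CPM (blue). Filled points are past the threshold, open points are not, and dashed lines mark ±0.6. The filled red points are *Dhrs3* at 1.85, *Crabp2* at 1.75 and *Cyp26b1* at 1.23, and the long bars of *Aldh1a1* and *Dhrs9* go with their few counts.

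At day 7 the 3 mice did not share 1 order. Among the 7 members averaging 10 CPM or more, *Aldh1a3*, *Crabp2*, *Stra6* and *Cyp26b1* were highest in mouse 1, whereas *Dhrs3*, *Rarg* and *Rara* were highest in mouse 3. The ratio of the highest to the lowest library of day 7 was 3.63 for *Crabp2* and 3.15 for *Aldh1a3*, and in both genes mouse 3 was the lowest. It was 2.05 for *Stra6*, 1.95 for *Dhrs3*, 1.78 for *Cyp26b1*, 1.65 for *Rara* and 1.37 for *Rarg*. At day 5 the same ratio was at most 1.54, reached by *Stra6*, and at least 1.11, in *Rarg*. The coefficient of variation of *Crabp2* went from 7.90% at day 5 to 54.8% at day 7, and that of *Aldh1a3* from 8.05% to 53.2%. That of *Rarg* was 6.33% and 17.9%. These spreads were not tested.

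**Figure D3:**
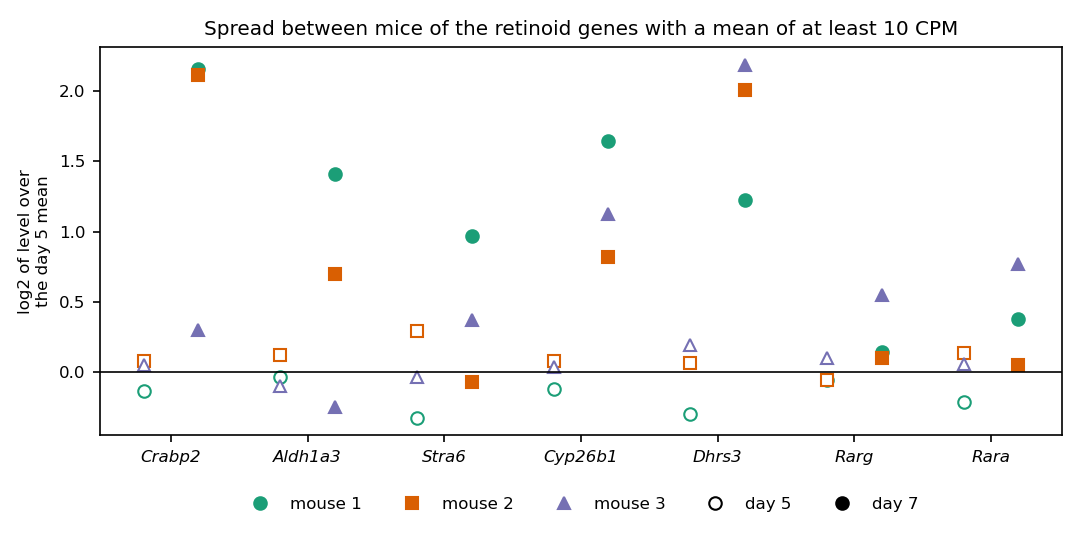
Level of each retinoid gene averaging 10 CPM or more, as log2 of its ratio to the day 5 mean of that gene (y axis), for the 3 mice (colour and marker) at day 5 (open) and day 7 (filled). Open points lie close to 0, while the filled points spread, with mouse 3 lowest for *Crabp2* and *Aldh1a3* and highest for *Dhrs3*, *Rarg* and *Rara*.

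Within each family 1 gene held most of the 3′ tags on both days. *Aldh1a3* took 89.8% to 91.8% of the counts of *Aldh1a1*, *Aldh1a2*, *Aldh1a3* and *Aldh1a7* at day 5 and 80.7% to 93.6% at day 7. The lowest of these shares, 134 of 166 counts in mouse 3 at day 7, had a 95% Wilson interval from 74.1% to 86.0% for counting error only. *Aldh1a2*, the main enzyme of the embryo, had 1 count in all libraries together. *Rarg* took 91.4% to 93.8% of the counts of *Rara*, *Rarb* and *Rarg* at day 5 and 91.1% to 91.8% at day 7, so the receptor mix was nearly the same in all libraries. Of the retinoid X receptors, *Rxra* held 79.6% to 82.3% of the counts at day 5 and between 70.1% and 80.1% at day 7, the rest being *Rxrb*. The tags of different genes may be captured unequally, and these shares are descriptions with no test.

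**Figure D4:**
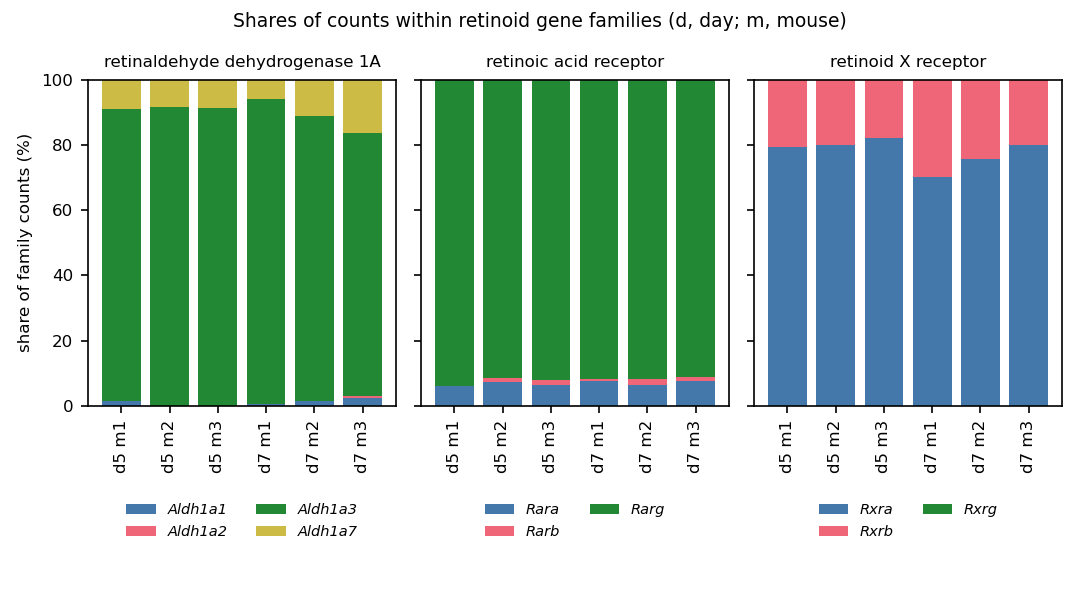
Share of the summed counts of each retinoid gene family (y axis, percent) taken by each gene in each of the 6 libraries (x axis, d for day and m for mouse). *Aldh1a3* and *Rarg* fill most of their families in every library, *Aldh1a3* least in mouse 3 at day 7 with 80.7%.

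The rest of the pathway was read from a list of 44 further genes, of which 34 had a count and 28 were tested. Of these 28, 5 rose past the threshold and 0 fell, with a median log2 fold change of 0.14 and 17 fitted above 0, beside 12.0% of all genes past the threshold and 7.22% past it and higher. With the mouse as a replicate block 8 passed, 6 of them higher, beside 14.8% of all genes. Among carriers and enzymes, *Sdr16c6*, of the epidermal retinol dehydrogenase family, went from 4 counts at day 5 to 71 at day 7 (log2 fold change 3.94 ± 0.61, edgeR adjusted p = 0.000315). *Rbp2*, known as the intestinal cellular retinol-binding protein gene, went from 4 to 36 counts (2.98 ± 0.67, edgeR adjusted p = 0.00614), and this call was lost without day 5 of mouse 3 (edgeR adjusted p = 0.0538). *Lipe*, the hormone-sensitive lipase gene whose product can release retinol from retinyl esters, had 8.25, 5.02 and 10.1 CPM at day 5 and 22.2, 23.3 and 18.1 CPM at day 7. It rose by 1.42 ± 0.31 on the log2 scale (edgeR adjusted p = 0.00481), a call lost without day 5 of mouse 2 (edgeR adjusted p = 0.0550). *Aldh1a7* rose by 0.96 ± 0.30 on the log2 scale (edgeR adjusted p = 0.0471), with 10 of 16 alternatives losing the call. *Nrip1*, a coregulator gene of nuclear receptors, rose by 0.81 ± 0.19 (edgeR adjusted p = 0.00968) and lost the call without day 5 of mouse 1 or 2 (edgeR adjusted p = 0.0818 and 0.101).

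Several other genes of the route did not pass the threshold in the reported fit but passed in some alternative. Of all genes, 14.8% passed with the replicate block and 16.7% without day 7 of mouse 3, against 12.0% in the reported fit. *Rxrb*, a partner of the retinoic acid receptors, stood at 0.77 ± 0.26 on the log2 scale (edgeR adjusted p = 0.0631) and passed with the replicate block (0.78, edgeR adjusted p = 0.0495) and without day 7 of mouse 3 (edgeR adjusted p = 0.0337). *Scarb1*, a scavenger receptor gene that also takes up carotenoids, stood at -0.74 ± 0.26 on that scale (edgeR adjusted p = 0.0715) and passed with the replicate block at -0.77 (edgeR adjusted p = 0.0355). It also passed without day 7 of mouse 1 (edgeR adjusted p = 0.0140) and when scaled by library totals (edgeR adjusted p = 0.0426). *Adh7*, an alcohol dehydrogenase gene of epithelia that can oxidise retinol, had 8.25, 11.5 and 6.12 CPM at day 5 and 3.84, 4.51 and 2.94 CPM at day 7, with no overlap between the days (log2 fold change -1.15 ± 0.40, edgeR adjusted p = 0.0693). It passed with the replicate block at -1.18 (edgeR adjusted p = 0.0340) and with thinned counts at -1.53 (edgeR adjusted p = 0.0396). *Ppard*, a receptor that can bind retinoic acid handed over by FABP5, stood at -0.54 ± 0.20 (edgeR adjusted p = 0.0955) and passed only without day 7 of mouse 3, at -0.61 (edgeR adjusted p = 0.0211). *Rdh11*, a retinaldehyde reductase gene, had -0.45 ± 0.22 (edgeR adjusted p = 0.207) and passed only without day 7 of mouse 1, at -0.71 (edgeR adjusted p = 0.0209).

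The remaining abundant genes passed neither in the reported fit nor in any alternative. Log2 fold changes were 0.56 for *Rdh10*, the main retinol dehydrogenase of retinoic acid synthesis, 0.44 for *Dgat1*, 0.42 for *Fabp5*, 0.36 for *Rxra*, 0.21 for *Ncoa3*, 0.16 for *Ncoa1*, 0.11 for *Rdh14* and 0.07 for *Ncoa2*. They were -0.08 for *Dhrs4*, -0.19 for *Ncor1*, -0.48 for *Rdh13* and -0.49 for *Adh5*. Those of *Rdh14*, *Ncoa2* and *Dhrs4* changed sign in at least 1 alternative. *Lrat*, which stores retinol as esters, *Rxrg* and *Rbp4* had 0 counts in every library.

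Genes known to respond to retinoids were counted from further lists, and *Nrip1*, *Rarb*, *Cyp26a1* and *Lrat* stand in both the pathway list and the target list. Of 11 general retinoic acid targets, 4 were tested and 2 rose, *Tgm2* and *Nrip1*, with 0 falling and a median log2 fold change of 0.74, again beside 7.22% of all genes past the threshold and higher. *Tgm2*, the tissue transglutaminase gene, had 7.42, 7.53 and 6.49 CPM at day 5 and 28.4, 79.5 and 77.3 CPM at day 7. It rose by 3.11 ± 0.36 on the log2 scale (edgeR adjusted p = 1.5e-05), with mouse 1 the lowest at day 7. *Rarb* had 12 counts at day 5 and 20 at day 7 (log2 fold change 0.66 ± 0.66, edgeR adjusted p = 0.568). The keratin genes *Krt13* and *Krt19*, known to be raised by retinoids in cultured keratinocytes, rose by 2.07 ± 0.25 and 1.78 ± 0.21 on the log2 scale (edgeR adjusted p = 2.49e-05 and 1.56e-05).

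Of 6 genes known to be lowered by retinoids in keratinocytes, all of them tested, 4 also rose and 0 fell, beside the same 7.22% of all genes. *Krt10*, a keratin of cornifying cells, had 93.2, 116 and 98.4 CPM at day 5 and 572, 494 and 236 CPM at day 7, and rose by 2.08 ± 0.26 on the log2 scale (edgeR adjusted p = 4.26e-05). *Loricrin*, a cornified envelope gene, rose by 3.33 ± 0.51 on the log2 scale (edgeR adjusted p = 0.000315) on 7 counts at day 5 and 78 at day 7. *Flg*, the filaggrin gene, went from 1 to 16 counts in sum, a ratio of 15.3 with an exact 95% interval from 2.37 to 641 for counting error only. Its call (edgeR adjusted p = 0.0335) was lost in 6 of 14 alternatives. Among these were the replicate block (edgeR adjusted p = 0.0733) and thinned counts (edgeR adjusted p = 0.0651). It was also lost without day 5 of mouse 1, day 5 of mouse 3 or day 7 of mouse 2 (edgeR adjusted p = 0.135, 0.150 and 0.127). *Tgm1*, the keratinocyte transglutaminase gene, rose by 1.85 ± 0.58 on the log2 scale (edgeR adjusted p = 0.0437) with overlapping days. Its call was lost in 9 of 15 alternatives, and of the single libraries only leaving out day 7 of mouse 3 kept it. Among those losses the log2 fold change was smallest without day 7 of mouse 1, at 1.11 (edgeR adjusted p = 0.214). *Ivl*, the involucrin gene, was fitted at 0.58 ± 0.21 (edgeR adjusted p = 0.0884) and passed without day 7 of mouse 3, at 0.64 (edgeR adjusted p = 0.0202), and with thinned counts, at 0.72 (edgeR adjusted p = 0.0497). *Krt1* had 0 counts at day 5 and 4 at day 7.

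**Figure D5:**
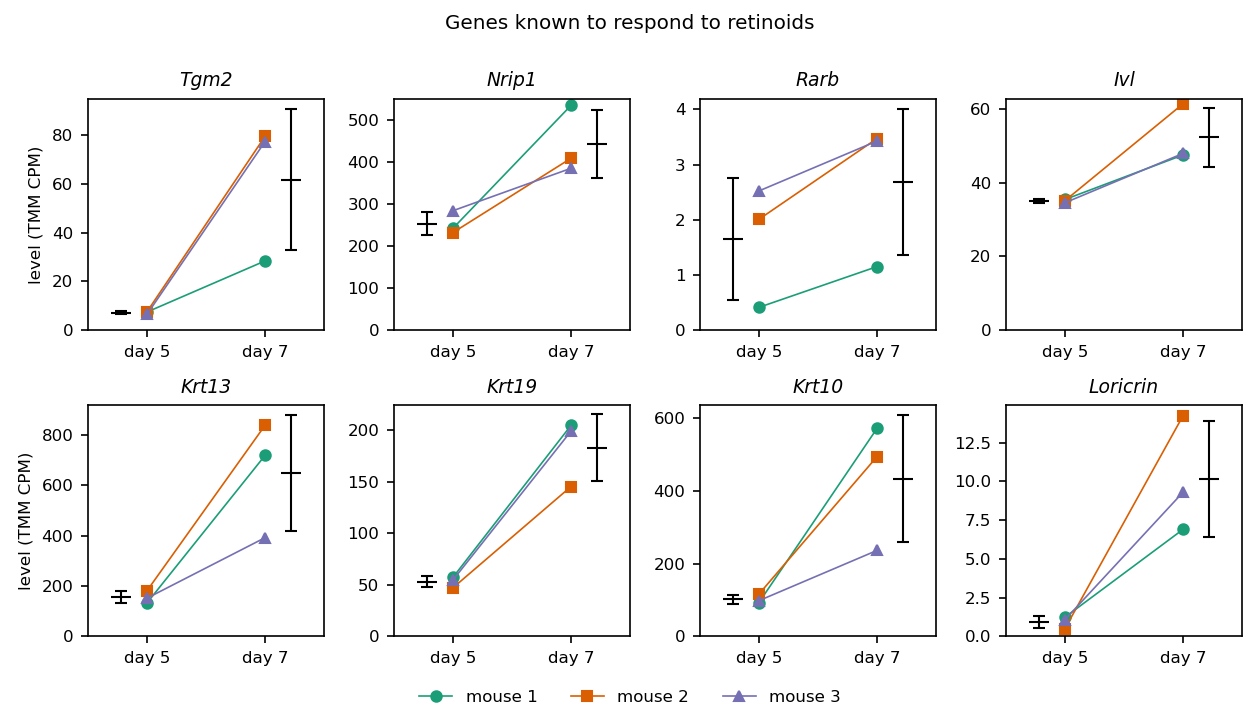
Level of 8 genes known to respond to retinoids in TMM-scaled CPM (y axis, linear, from 0) at day 5 and day 7 (x axis), with 1 colour and marker per mouse and the mean ± SD of each day in black. *Krt13* and *Krt19*, known to be raised by retinoids in keratinocytes, and *Krt10* and *Loricrin*, known to be lowered, are all higher at day 7 in each mouse, and *Tgm2* is lowest in mouse 1 at day 7.

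The genes whose level over the 6 libraries was most like that of a retinoid gene were sought by Pearson's r of log2 CPM. The search covered the 8172 genes that averaged 10 CPM or more, less those without a symbol and those with symbols beginning with Gm or ending in Rik. Counts of genes with a high r leave out the same genes. With 6 libraries of 3 mice and 2 days such values are high for many genes, and they are given as a description. *Crabp2* was closest to *Klf9* and *Fxr2* (r = 0.999 for both). *Klf9*, a transcription factor gene known to respond to glucocorticoids, had 125, 133 and 132 CPM at day 5 and 333, 335 and 152 CPM at day 7, with mouse 3 again the lowest at day 7. *Aldh1a3* was closest to *Maf* and *Phf21a* (r = 0.988 for both). *Maf*, a transcription factor gene, had 87.4, 84.9 and 85.7 CPM at day 5 and 290, 145 and 75.9 CPM at day 7, where the order of mice was that of *Aldh1a3*. *Dhrs3* was closest to *Sar1a* and *Sord* (r = 0.998 for both), and 283 genes had an r of 0.95 or more with it. *Cyp26b1* was closest to *Fam135a* (0.990) and to *Gas1* (0.989), whose level went from 25.2, 31.1 and 33.1 CPM to 214, 107 and 134 CPM. *Stra6* was closest to *Pfkl* (0.990) and *Mif* (0.979), and 9 genes reached an r of 0.95 with it. *Rarg* was closest to *Gatad2a* and *Ifitm2* (0.990 for both), and *Rara* to *Yju2* (0.998) and *Slc1a4* (0.993).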

How the data were processed

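The libraries were made from polyadenylated RNA (100 ng, RIN above 9) with the Lexogen QuantSeq 3′ kit. The deposited files hold raw counts per library for each Ensembl ID, which the authors made from reads aligned to GRCm39. The aligner, annotation release, strand setting and treatment of reads with several positions are not given in the sources used here. Closing entries that name no gene were left out. Of 47643 IDs, 43465 (91.2%) matched GENCODE vM39, which also gave the coordinates in GRCm39.

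Genes entered the fit when 2 or more libraries had a count of 1 or more, which left 15792. The day effect was estimated with edgeR 4.0.16 (R 4.3.3; TMM scaling, quasi-likelihood F test, two-sided, robust = FALSE) without other terms. Benjamini-Hochberg adjustment covered all 15792 genes, and a call needed an adjusted p below 0.05 and a log2 fold change beyond 0.6 in size, the cutoffs named in the methods of the study. Replicates differed by more than sampling noise (chi-square per degree of freedom at least 2.09). The fit gave each gene 1 dispersion for both days, although day 7 libraries varied more. The biological coefficient of variation was 0.29 at day 7 against 0.09 at day 5. Leaving out a library therefore also changes how far each day sets that dispersion. Libraries with the same number came from the same mouse per the labels, which pairs them, although their deviations from the day means correlated weakly (r = 0.14, -0.10 and 0.16 over 8172 genes). Blocked values are printed beside the calls they change. Alternatives were DESeq2 1.42.0, other scalings and filters, glmTreat, robust = TRUE, no minimum fold change, a fit on thinned counts and each library left out. Intervals (95%) cover counting error only. The scripts were tested on simulated data. Shared 3′ ends were runs of at least 50 bases within the last 500 bases of GENCODE transcripts. Promoter sequences are from RefSeq (GRCm38.p6).

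The 9 genes and all lists were chosen with earlier results of these data known. Named were all 9 genes, the listed genes past the threshold or averaging 10 CPM or more, and the 2 genes most like each of the 9 with such a mean. *Adh7*, *Krt1*, *Rarb*, *Aldh1a2*, *Cyp26a1*, *Cyp26c1*, *Lrat*, *Rxrg* and *Rbp4* were named beyond that rule, after their values were seen. Some genes of the pathway are not reported here.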

Additional observations from a re-analysis of the deposited data

How the results depend on the processing

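Among the 9 retinoid genes, 2 to 4 passed the threshold under every alternative, and *Crabp2* and *Dhrs3* passed in all of them. The number was 2 with glmTreat or without any 1 library of day 5, beside 3.94% to 5.83% of all genes. It was 4 without the filter, with the replicate block or without day 7 of mouse 3, beside 12.9% to 16.7% of all genes. In the other alternatives it was 3, as reported. Over 41 named genes and 684 results from alternatives, 628 kept direction and side of the threshold, 34 lost the call, 14 gained it and 8 changed sign. These results include the reported fit read without a minimum fold change. With that setting, glmTreat and robust = TRUE the log2 fold change was that of the reported fit, so its direction could not change. The 628 is therefore no measure of how stable the calls were. The count of pathway genes past the threshold was 8 with the mouse as a replicate block, 3 with glmTreat and 2 to 7 when single libraries were left out (7 without day 7 of mouse 1 or 3, 2 without day 5 of mouse 2), against 5 as reported. The count of retinoic acid targets was 1 with glmTreat and 1 to 2 when single libraries were left out. The replicate block changed the calls named with the results (*Aldh1a3*, *Rxrb*, *Scarb1*, *Adh7*, *Flg*) and no other among these genes. Besides *Cyp26b1*, glmTreat lost *Aldh1a7*, *Nrip1*, *Flg* and *Tgm1*, with edgeR adjusted p from 0.0873 to 0.368. The sign changes were in genes with fold changes near 0 or few counts. *Dhrs9* was at 0.078 with thinned counts and from -3.51 to 0.68 when single libraries were left out, above 0 without day 5 of mouse 3 or day 7 of mouse 1. With single libraries left out, *Rdh14* ranged from -0.0019 to 0.25, *Dhrs4* from -0.34 to 0.14 and *Ncoa2* from -0.0972 to 0.28, and *Ncoa2* was at -0.0141 scaled by library totals. Their cause was not tested. No scaling moved the median of all genes further than to -0.0973. DESeq2 gave no adjusted p for *Aldh1a1*, *Dhrs9*, *Flg* and *Krt1*. A stricter filter (filterByExpr) dropped these genes and also *Rbp2*, *Tgm1* and *Rarb*. The calls of *Rbp2*, *Flg* and *Tgm1* were therefore not tested under that filter. Few counts are the limit of depth here.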
